A study of Mus musculus with 70 samples.

Results

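The BCL2 family of apoptosis regulators was followed as 10 genes across 8 mouse cancer cell lines kept with interferon gamma (IFNg), with interferon beta (IFNb) or without added cytokine (NS). The genes were taken by symbol from the deposited table: Bcl2, Bcl2l1, Mcl1, Bcl2l11, Bmf, Bbc3, Pmaip1, Bid, Bax and Bak1. All 10 were found among the 35197 genes of the table, and all 10 passed the filter on low counts that left 16147 genes. The melanoma lines were B16.1 and YUMMER1.7, the colorectal cancer lines CT26.2 and MC38.7, the pancreatic cancer lines KPC.2 and Panc02.3, the lung cancer line LLC and the renal cancer line Renca. The genotype label was BALB/c for CT26.2 and Renca and C57BL/6 for the rest. IFNg was given at 100 ng per mL and IFNb at 1000 activity units per mL, each for 48 h. The doses are in different units, so they are not matched. All cells grew in DMEM with serum. LLC with IFNg and unstimulated Renca held 2 libraries each, and the other 22 groups held 3, which gave 23 IFNg, 24 IFNb and 23 NS libraries.

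The family controls the mitochondrial route to apoptosis. Bax and Bak1, once activated, form pores in the outer mitochondrial membrane, and the cytochrome c that escapes lets Apaf1 assemble the apoptosome and switch on caspases. Bcl2, Bcl2l1 (BCL-XL) and Mcl1 hold back Bax and Bak1 and bind their activators. The BH3-only proteins Bcl2l11 (BIM), Bmf, Bbc3 (PUMA), Pmaip1 (NOXA) and Bid report stress by occupying these guardians or by activating Bax and Bak1 directly. Much of this control acts on the proteins, through cleavage, phosphorylation and turnover, which RNA counts do not measure. Interferons signal through JAK kinases and STAT factors, and IFNg is known to sensitise many tumour cells to death receptor ligands.

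Levels are given as CPM (counts scaled to library size) after TMM normalisation, and differences as log2 fold changes with their standard error (SE). Library totals ran between 668355 and 28550816 counts with a median of 8644887, and the shallowest was replicate 3 of KPC.2 with IFNb. Replicate 2 of Renca with IFNg had the highest chi-square per gene against the other libraries of its group. This measure grows with depth, so it does not rank groups of unlike depth. The changes called in Renca with IFNg are also given without that replicate. Other groups were loose too, by chi-square per gene between pairs of libraries. Replicate 1 of unstimulated Panc02.3 gave 19.1 and 12.05 against replicates 2 and 3, which gave 5.52 against each other. Replicate 1 of CT26.2 with IFNb gave 14.2 and 11.1 in the same way, against 3.76. The 2 unstimulated Renca libraries gave 14.4, and which of them departs cannot be told. The NS libraries among these enter every change against NS in their lines. Per group, 3 counts in all, taken as the floor, correspond to 0.0396 to 0.343 CPM. Nothing in the labels tells whether replicates are independent cultures, so the p-values reflect variation among libraries that may be only technical. LLC with IFNg and unstimulated Renca keep 1 library when 1 of theirs is left out, and such values, for any member, take the spread of that group from the other groups. The counts come from whole cultures, so fewer cells that express a gene and less RNA per cell cannot be told apart. Counts are per gene, so the isoforms of Bcl2l1, Mcl1 and Bcl2l11 were not separated, and levels were not compared between genes because they are not per length. On GRCm38 the genes lie at chr1:106538178-106714274 (Bcl2), chr2:152780668-152831728 (Bcl2l1), chr3:95658788-95663176 (Mcl1), chr2:128126038-128162547 (Bcl2l11), chr2:118528757-118549687 (Bmf), chr7:16308393-16318205 (Bbc3), chr6:120891930-120916853 (Bid), chr7:45461697-45466898 (Bax) and chr17:27019810-27029009 (Bak1).

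Markers of the labelled lineage were high in only some lines. Summed melanocyte markers lay at 19608 to 20038 CPM in unstimulated B16.1 but at 17.4 to 23.0 CPM in YUMMER1.7, which is also labelled melanoma. Epithelial markers summed to 6869 to 7209.5 CPM in KPC.2, 1949.8 to 2157 CPM in Panc02.3 and 2.73 to 3.17 CPM in MC38.7. Colon markers reached no more than 2.21 CPM in CT26.2 and 0.182 CPM in MC38.7, both labelled colorectal, but lay at 530 to 591 CPM in KPC.2 and 156 to 163 CPM in Panc02.3, both labelled pancreatic. Pancreas duct markers summed to more, 1829 to 2023 CPM in unstimulated KPC.2 and 742 to 931 CPM in unstimulated Panc02.3. In the unstimulated libraries of the other lines they reached no more than 149 CPM, in MC38.7. Krt19 is in both the duct and the epithelial list. Lung epithelial markers reached no more than 0.0615 CPM in LLC. Kidney tubule markers summed to 691 to 733 CPM in Renca. The leukocyte markers summed to between 1.81 and 16.11 CPM in the libraries of the other 7 lines and between 52.2 and 66.7 CPM in those of Renca. Of 12 interferon-induced genes taken as a check, at least 11 rose with each cytokine in each line, except with IFNb in YUMMER1.7, where 2 rose and 4 fell.

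With IFNg, the most widespread changes in the family were higher Bid and Bak1, while Bax passed the test in no line. Averaged over the 8 lines with equal weight, the log2 change with IFNg was 1.13 ± 0.03 for Bid, 0.73 ± 0.02 for Bak1, 0.32 ± 0.03 for Bcl2l1 and 0.25 ± 0.04 for Bbc3, all of which rose (SE, 23 IFNg and 23 NS libraries). Bmf fell by 1.07 ± 0.09 and Bcl2 by 0.26 ± 0.03 on the same scale. In edgeR's quasi-likelihood test the adjusted p was 4.0e-40 for Bid, 6.2e-35 for Bak1, 5.1e-16 for Bcl2l1, 8.2e-15 for Bmf, 2.5e-09 for Bcl2 and 7.2e-07 for Bbc3. Of the 10 members, 4 rose and 2 fell, where 18.3% of all genes tested rose and 23.7% fell by the same rule. The SE and p of any mean over lines rest on the spread between libraries and leave out the spread between lines. For Bid the 8 lines ran between 0.23 and 2.49, and for Bbc3 between −0.53 and 1.53. Some means rested on single lines. Leaving out a line, a step chosen after the data were seen, took Bbc3 to 0.07 ± 0.04 without B16.1 (edgeR adjusted p = 0.25), which did not pass, and to 0.13 ± 0.04 without Panc02.3. Bcl2l1 stood at 0.19 ± 0.03 without B16.1 and Bmf at −0.40 ± 0.09 without Panc02.3, and both still passed. Mcl1 (0.01 ± 0.02), Bcl2l11 (−0.07 ± 0.05) and Bax (−0.06 ± 0.03) did not pass. The mean over lines of Pmaip1 could not be estimated, because it stood at or near 0 counts in 4 lines.

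Counted line by line, 26 of the 77 member-by-line pairs above the floor rose with IFNg and 13 fell. Over all genes and the 8 lines, 12% of tests rose and 12.4% fell. Without replicate 3 of every group the count of falls was 8. The libraries with and without IFNg did not overlap in 37 of these 39 changes, a share near the 95.3% of all changes called over all genes. The numbers of members up and down with IFNg, with the shares of all genes tested in brackets, were 5 up and 1 down in B16.1 (27.6% and 26.5%), 4 up and 2 down in YUMMER1.7 (9.79% and 11%), 2 up and 0 down in CT26.2 (4.97% and 3.86%) and 2 up and 1 down in MC38.7 (3.89% and 0.886%). They were 4 up and 3 down in KPC.2 (13.8% and 15.8%), 3 up and 4 down in Panc02.3 (23.2% and 31.6%), 2 up and 1 down in LLC (6.65% and 4.6%) and 4 up and 1 down in Renca (6.04% and 5.16%). A change of at least 2-fold was seen in 7 rises and 3 falls, where 4.21% of tests over all genes were rises and 3.31% falls of that size. The rises were Bid, Bbc3, Bcl2l1 and Bak1 in B16.1, Bid and Bbc3 in Panc02.3 and Bak1 in KPC.2, and the falls were Bmf in Panc02.3 and LLC and Bcl2l11 in Panc02.3.

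**Figure D1:**
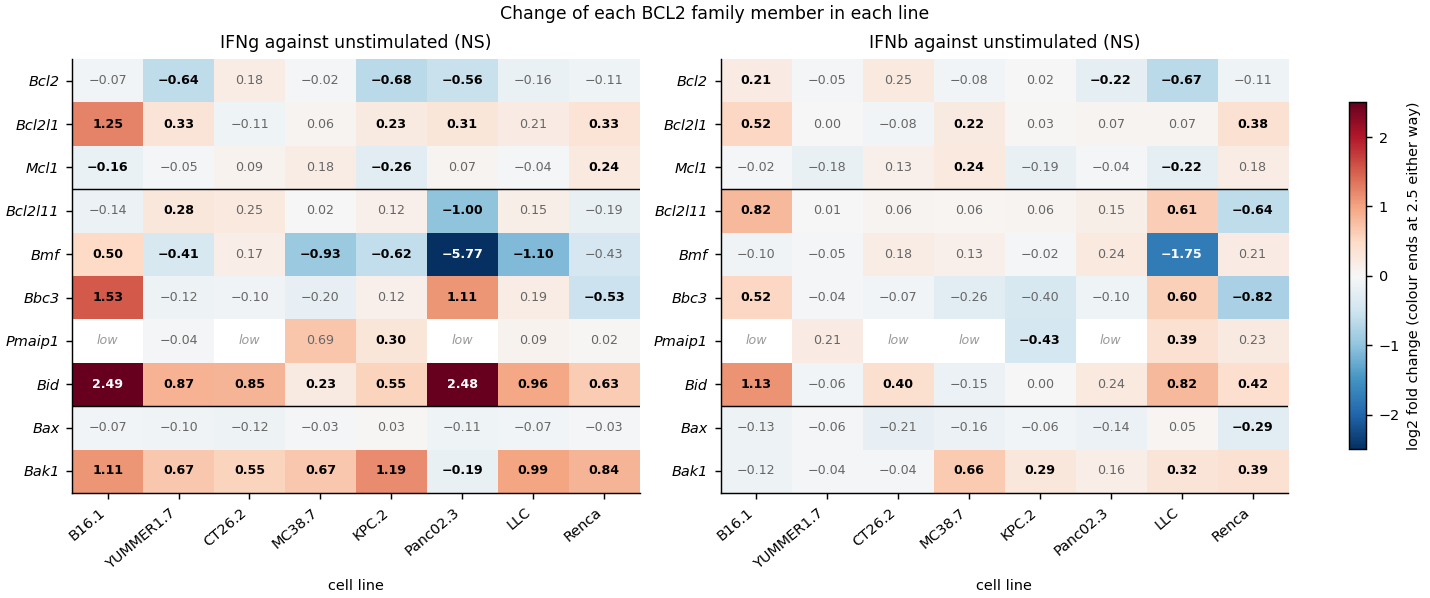
Log2 fold change of each member (down the page: antiapoptotic, BH3-only and pore-forming members, parted by lines) in each of the 8 lines, for IFNg against NS on the left and IFNb against NS on the right. Bold values have an edgeR adjusted p under 0.05, "low" marks pairs of groups with 3 or fewer counts each, and colour ends at 2.5 either way. With IFNg, Bid is red in all 8 lines and Bak1 in 7, Bax is near white throughout, and Bmf in Panc02.3 is the deepest blue at −5.77.

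Promoter sequence was read for the members to show what lies upstream of genes that did and did not respond to IFNg. RefSeq (GRCm38.p6) start sites of 9 of the 10 members were read, 16 in all, with Pmaip1 left out of the search. The 250 bases before each start were searched on both strands. The interferon-stimulated response element, searched as GAAA, any 2 bases and GAAA, was found in 0 of the 16 windows, against 2.97% of 32817 windows over all genes. At that share 0 matches in 16 windows would be usual, so the members cannot be said to lack the element. The GC box GGGCGG was found in 9 of 16, against 32.7%, and the median GC content of the members' windows was 61%, against 52.4% over all windows. Some members gave several windows, and those of Bbc3 overlap in part, so the 16 windows are not independent. A match is a string of letters and no evidence of binding, and these windows leave out introns and distant elements.

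Some windows are printed in the direction of transcription, with GC boxes on either strand in capitals. Bid, which rose most widely with IFNg, has 3 boxes in its 250 bases, with 2 of them in the 221 bases printed. Bcl2l1, which rose in 5 lines, has none in any of its windows, and its most upstream window is printed. Bax, which passed in no line, has 2. Of the searched members not printed, Bak1 and Bmf also have none. Bcl2, Mcl1, Bcl2l11 and Bbc3 have at least 1 in each window. The Bid window is chr6:120916854-120917074, the Bcl2l1 window chr2:152831729-152831978 and the Bax window chr7:45466899-45467148, all on the minus strand of GRCm38.p6.
Bid: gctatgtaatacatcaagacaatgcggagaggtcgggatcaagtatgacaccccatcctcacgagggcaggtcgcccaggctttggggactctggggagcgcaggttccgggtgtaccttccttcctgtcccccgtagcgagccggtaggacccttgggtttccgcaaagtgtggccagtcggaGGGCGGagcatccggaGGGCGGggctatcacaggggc
Bcl2l1: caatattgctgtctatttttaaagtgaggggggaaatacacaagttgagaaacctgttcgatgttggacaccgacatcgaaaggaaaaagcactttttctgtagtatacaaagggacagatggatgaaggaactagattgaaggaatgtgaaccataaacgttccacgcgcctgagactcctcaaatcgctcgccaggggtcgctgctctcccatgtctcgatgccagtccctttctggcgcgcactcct
Bax: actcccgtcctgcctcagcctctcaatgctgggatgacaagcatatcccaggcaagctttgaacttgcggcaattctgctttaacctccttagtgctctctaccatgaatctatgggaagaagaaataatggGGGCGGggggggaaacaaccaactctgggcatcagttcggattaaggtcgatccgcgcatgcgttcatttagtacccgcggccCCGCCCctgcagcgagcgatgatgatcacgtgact

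Bid, the BH3-only protein that caspase-8 cleaves to carry a death receptor signal to mitochondria, rose with IFNg in all 8 lines. Its libraries lay at 39.5, 71.7 and 127 CPM (lowest, median and highest of 23) with IFNg, at 21.4, 43.4 and 56.7 CPM (of 24) with IFNb and at 16.4, 26.7 and 66.3 CPM (of 23) unstimulated. In B16.1 it had 123, 121 and 127 CPM with IFNg, against 21.7, 20.7 and 23.4 CPM in NS, a 5.62-fold rise. In Panc02.3 it had 121, 99.6 and 89.3 CPM with IFNg, against 20.2, 16.4 and 19.2 CPM in NS, a 5.58-fold rise. These groups lay far apart in both lines, and the log2 changes were 2.49 ± 0.08 in B16.1 (edgeR adjusted p = 3.6e-35) and 2.48 ± 0.09 in Panc02.3 (edgeR adjusted p = 1.2e-32).

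In the other 6 lines the rise of Bid stayed under 2-fold. LLC had 44.1 and 44.9 CPM with IFNg, against 23.0, 22.9 and 22.5 CPM in NS (0.96 ± 0.08). YUMMER1.7 had 43.4, 46.1 and 39.5 CPM with IFNg, against 26.7, 21.9 and 22.3 CPM in NS (0.87 ± 0.08). CT26.2 had 67.8, 71.7 and 78.5 CPM with IFNg, against 41.8, 41.4 and 39.0 CPM in NS (0.85 ± 0.09). In each of these lines the lowest IFNg library exceeded the highest NS library. Renca had 52.4, 49.8 and 44.1 CPM with IFNg, against 31.5 and 31.2 CPM in NS (0.63 ± 0.09). KPC.2 had 65.6, 77.4 and 71.3 CPM with IFNg, against 52.1, 44.0 and 49.5 CPM in NS (0.55 ± 0.08). MC38.7, which had the highest unstimulated Bid, had 73.5, 71.9 and 73.7 CPM with IFNg, against 66.3, 59.9 and 60.8 CPM in NS (0.23 ± 0.07, edgeR adjusted p = 0.024), the smallest of the 8 changes. In MC38.7 the call for Bid was lost without IFNg replicate 1 or 3 or NS replicate 2 or 3 (log2 change 0.20 to 0.22, edgeR adjusted p 0.079 to 0.16), and also with RLE scaling or without the filter on low counts (adjusted p 0.054 to 0.069).

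Of the exonic bases of Bid, 628 of 3550 overlap exons of Bcl2l13, another family gene, on the opposite strand. Bcl2l13 itself changed with IFNg by −0.46 ± 0.07 in B16.1 and −0.31 ± 0.09 in Panc02.3, where it fell, the direction opposite to that of Bid. The sources used here do not give whether the authors' counting used strand, so reads from the shared stretch may have been credited to either gene.

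**Figure D2:**
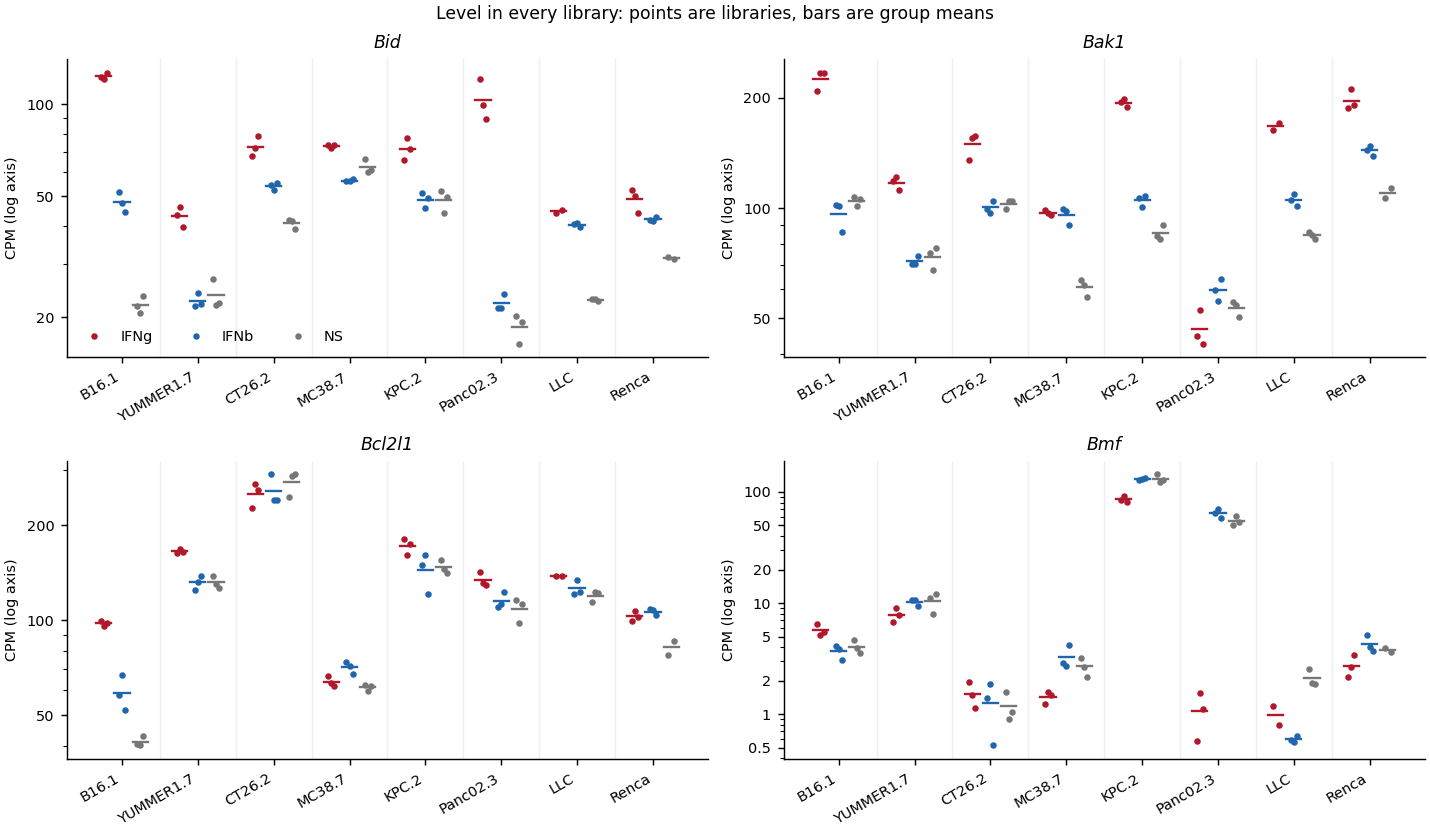
CPM (log axis) of Bid, Bak1, Bcl2l1 and Bmf in every library of the 8 lines, with IFNg (red), IFNb (blue) and NS (grey) side by side in each line; points are libraries and bars are group means. The IFNg libraries of Bid lie above the NS libraries in all 8 lines, those of Bak1 in 7, and those of Bmf drop to 0.569 to 1.56 CPM in Panc02.3.

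Bak1, a pore-forming effector that resides in the mitochondrial outer membrane, rose with IFNg in 7 of 8 lines. Its libraries lay at 42.6, 157 and 234 CPM (lowest, median and highest) with IFNg, at 55.9, 100.1 and 148 CPM with IFNb and at 50.4, 84.1 and 113 CPM in NS. KPC.2 had 195, 198 and 188 CPM with IFNg, against 84.1, 82.5 and 89.6 CPM in NS (1.19 ± 0.06, edgeR adjusted p = 1.0e-23). B16.1 had 209, 234 and 234 CPM with IFNg, against 107, 101 and 106 CPM in NS (1.11 ± 0.06, edgeR adjusted p = 4.8e-24). Both were rises of more than 2-fold with well separated groups. LLC followed at 0.99 ± 0.06, with 163 and 171 CPM with IFNg, against 86.1, 84.2 and 82.3 CPM in NS. Renca stood at 0.84 ± 0.07, with 187, 212 and 191 CPM with IFNg, against 107 and 113 CPM in NS. YUMMER1.7 (0.67 ± 0.06), MC38.7 (0.67 ± 0.06) and CT26.2 (0.55 ± 0.07) rose less, again without overlap between IFNg and NS libraries.

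Panc02.3 was the exception for Bak1, with 44.7, 52.8 and 42.6 CPM with IFNg, against 55.2, 54.4 and 50.4 CPM in NS. The groups overlapped, and the fall of 0.19 ± 0.08 passed narrowly (edgeR adjusted p = 0.039). Leaving out IFNg replicate 1 or 3 or NS replicate 1 or 2 ended the call for Bak1 in Panc02.3 (log2 change −0.14 to −0.18, edgeR adjusted p 0.082 to 0.23), and it was also lost with RLE scaling, without the filter on low counts, with the line fitted alone, in limma-voom or in DESeq2 (adjusted p 0.071 to 0.52). The test of this line against the mean of the other 7 gave a difference of −1.05 ± 0.08 in the log2 change (edgeR adjusted p = 8.2e-17), so Bak1 responded differently there whether or not it fell. Of the 2407 exonic bases of Bak1, 614 overlap Ggnbp1 on the opposite strand. Ggnbp1 had a median of 1.08 CPM and reached 9.96 CPM at most. With IFNg it fell in KPC.2 (−1.39 ± 0.44, edgeR adjusted p = 0.012), where Bak1 rose, and rose in B16.1 (2.10 ± 0.89, edgeR adjusted p = 0.042), where Bak1 rose too. It passed in no other line with IFNg, and part of the reads of either gene may belong to the other.

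Bax, the other pore-forming effector, which moves from the cytosol to mitochondria on activation, passed in 0 of the 8 lines with IFNg by edgeR, DESeq2 or limma-voom, and in 0 at an unadjusted p under 0.05. Its log2 changes ran between −0.12 and 0.03. Without IFNg replicate 1, Panc02.3 passed at −0.24 (edgeR adjusted p = 0.013). Its libraries lay at 52.0, 135 and 226 CPM with IFNg, at 46.3, 149 and 221 CPM with IFNb and at 55.1, 161 and 242 CPM in NS, again the lowest, median and highest. On the mean of lines the change with IFNg was −0.06 ± 0.03 (95% interval −0.12 to −0.01 before adjustment, edgeR adjusted p = 0.068), which bounds it to a small shift without showing that it was 0. Without KPC.2 the mean was −0.08 ± 0.03 and passed (edgeR adjusted p = 0.032). It was −0.12 ± 0.03 with IFNb (edgeR adjusted p = 0.00049), a fall. With IFNb, Renca was the line where Bax passed, with 47.8, 51.5 and 46.8 CPM with IFNb, against 63.2 and 55.1 CPM in NS (−0.29 ± 0.09). The Renca call for Bax did not hold without IFNb replicate 1 or 3 or NS replicate 2 (log2 change −0.18 to −0.27, edgeR adjusted p 0.087 to 0.49), nor did it hold without the filter on low counts or with the line fitted alone (adjusted p 0.063 to 0.15). Of its 1576 exonic bases, 192 are shared with the predicted gene Gm45808 on the same strand, which had 34 counts in all 70 libraries together.

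Among the antiapoptotic members, Bcl2l1 rose and Bcl2 fell with IFNg on the mean of lines, and Mcl1 showed no common direction. Bcl2l1, whose long product BCL-XL guards the outer membrane, lay at 61.9, 138 and 271 CPM with IFNg, at 51.8, 121 and 290.0 CPM with IFNb and at 40.2, 116 and 290.4 CPM in NS (lowest, median and highest library). B16.1 had 99.1, 96.1 and 98.3 CPM with IFNg, against 40.4, 40.2 and 42.8 CPM in NS, a log2 rise of 1.25 ± 0.08 (edgeR adjusted p = 1.4e-20). This line had the lowest unstimulated Bcl2l1 of the 8, and with IFNg its libraries still lay below those of unstimulated KPC.2 and YUMMER1.7. Smaller rises were seen in YUMMER1.7 (0.33 ± 0.07), Renca (0.33 ± 0.08), Panc02.3 (0.31 ± 0.08) and KPC.2 (0.23 ± 0.07). Without IFNg replicate 1 or NS replicate 3 the call for Bcl2l1 in KPC.2 was lost (log2 change 0.19 to 0.20, edgeR adjusted p 0.056 to 0.075). In Renca the call for Bcl2l1 was lost without NS replicate 2 (log2 change 0.26, edgeR adjusted p 0.16), with 1 NS library then left and its spread taken from the other groups. In LLC (0.21 ± 0.07), MC38.7 (0.06 ± 0.07) and CT26.2 (−0.11 ± 0.07), the line with the highest level, no change passed.

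Bcl2, the founding antiapoptotic member, fell with IFNg in 3 lines. KPC.2 had 41.8, 39.0 and 42.3 CPM with IFNg, against 62.9, 71.7 and 62.2 CPM in NS (−0.68 ± 0.08). YUMMER1.7 had 10.8, 9.11 and 7.54 CPM with IFNg, against 14.6, 14.9 and 14.1 CPM in NS (−0.64 ± 0.13). Panc02.3, the line with most Bcl2, had 83.0, 98.4 and 79.0 CPM with IFNg, against 119.8, 138 and 125 CPM in NS (−0.56 ± 0.08). In these 3 lines every IFNg library lay below the NS libraries, and the edgeR adjusted p was 6.0e-05 in YUMMER1.7, 9.3e-09 in Panc02.3 and 1.4e-09 in KPC.2. Over all lines its libraries lay at 7.54, 40.5 and 98.4 CPM with IFNg, at 8.92, 43.3 and 119.8 CPM with IFNb and at 8.81, 43.0 and 138 CPM in NS. The other 5 lines did not pass, with log2 changes between −0.16 in LLC and 0.18 in CT26.2. The antisense gene D630008O14Rik, not analysed here, covers 558 of the 9157 exonic bases of Bcl2.

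Mcl1, a short-lived guardian that binds Bak1 in particular, changed by 0.01 ± 0.02 with IFNg on the mean of lines (95% interval −0.04 to 0.06), while single lines moved both ways. Renca had 199.996, 188 and 214 CPM with IFNg, against 166 and 175 CPM in NS (0.24 ± 0.07), a rise. KPC.2, the line with most Mcl1, had 304, 304 and 289 CPM with IFNg, against 382, 326 and 365 CPM in NS (−0.26 ± 0.07, edgeR adjusted p = 0.0013), a fall. B16.1 fell by 0.16 ± 0.07 (edgeR adjusted p = 0.042). Of these, the KPC.2 call held whichever single library was left out. Leaving out IFNg replicate 3 or NS replicate 2 or 3 ended the call for Mcl1 in Renca (log2 change 0.19 to 0.28, edgeR adjusted p 0.052 to 0.30), and it was also lost with the line fitted alone (adjusted p 0.076). The B16.1 call for Mcl1 did not hold without IFNg replicate 3 or NS replicate 2 or 3 (log2 change −0.08 to −0.16, edgeR adjusted p 0.087 to 0.37), nor did it hold with the line fitted alone (adjusted p 0.051).

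The remaining BH3-only members split by line. Bmf, which is held at the cytoskeleton by dynein light chains in unstressed cells, fell with IFNg in 5 lines and rose in B16.1. In Panc02.3 it had 0.569, 1.56 and 1.10 CPM with IFNg, against 50.1, 60.7 and 53.3 CPM in NS. The IFNg group there sums to 11 counts over 3 libraries, and the log2 change was −5.77 ± 0.22, or 54.6-fold lower (edgeR adjusted p = 1.0e-30). In LLC it had 1.18 and 0.794 CPM with IFNg, against 2.56, 1.90 and 1.86 CPM in NS (−1.10 ± 0.25). KPC.2, the line with most Bmf, had 85.0, 91.9 and 81.2 CPM with IFNg, against 144, 123 and 129 CPM in NS (−0.62 ± 0.09, edgeR adjusted p = 3.2e-08). The falls in Panc02.3 and KPC.2 thus came from the lines with the highest levels, whereas LLC and MC38.7 (−0.93 ± 0.20) started low. YUMMER1.7 fell by 0.41 ± 0.15, and B16.1 rose by 0.50 ± 0.19.

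The Bmf calls outside Panc02.3 and KPC.2 did not hold with every single library left out. Without IFNg replicate 3 the call for Bmf in LLC was lost (log2 change −0.81, edgeR adjusted p 0.13), with 1 IFNg library then left and its spread taken from the other groups. In MC38.7 the call for Bmf was lost without NS replicate 1 (log2 change −0.76, edgeR adjusted p 0.067). Leaving out IFNg replicate 1 or 3 or NS replicate 1 or 3 ended the call for Bmf in YUMMER1.7 (log2 change −0.28 to −0.39, edgeR adjusted p 0.090 to 0.29), and it was also lost with RLE scaling, without the filter on low counts, with the line fitted alone, in limma-voom or in DESeq2 (adjusted p 0.054 to 0.10). The B16.1 call for Bmf did not hold without IFNg replicate 1 or NS replicate 3 (log2 change 0.41, edgeR adjusted p 0.10 to 0.11), nor did it hold without the filter on low counts or in limma-voom (adjusted p 0.069 to 0.081). The average of the other 7 lines without Panc02.3 was −0.40, and Panc02.3 differed from it by −5.37 ± 0.27 (edgeR adjusted p = 1.1e-24).

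Bbc3, a p53 target that engages all the antiapoptotic members, rose with IFNg in B16.1 and Panc02.3 and fell in Renca. B16.1 had 30.6, 36.1 and 37.5 CPM with IFNg, against 11.8, 11.6 and 12.6 CPM in NS (1.53 ± 0.12, edgeR adjusted p = 2.3e-17). Panc02.3 had 47.0, 29.98 and 41.9 CPM with IFNg, against 20.7, 17.5 and 17.8 CPM in NS (1.11 ± 0.12, edgeR adjusted p = 6.4e-12). Renca had 12.4, 17.4 and 12.1 CPM with IFNg, against 20.4 and 21.2 CPM in NS (−0.53 ± 0.12). None of these groups overlapped. Its call in Renca was lost with the line fitted alone (adjusted p 0.089). In the other 5 lines the log2 change lay between −0.20 in MC38.7 and 0.19 in LLC, and none passed. Over all lines Bbc3 lay at 12.1, 22.3 and 71.6 CPM with IFNg, at 8.98, 17.5 and 73.5 CPM with IFNb and at 11.5, 17.5 and 76.5 CPM in NS.

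Bcl2l11, the BH3-only activator BIM that is induced by FOXO factors and removed after ERK phosphorylation, fell with IFNg in Panc02.3. It had 11.9, 10.9 and 12.9 CPM there with IFNg, against 18.4, 28.3 and 25.2 CPM in NS (−1.001 ± 0.15, edgeR adjusted p = 5.0e-08). In YUMMER1.7, which had the highest unstimulated level, it rose by 0.28 ± 0.09, with 67.3, 64.3 and 64.9 CPM with IFNg, against 57.0, 49.9 and 54.9 CPM in NS. In YUMMER1.7 the call for Bcl2l11 was lost without IFNg replicate 1 or NS replicate 2 (log2 change 0.23 to 0.26, edgeR adjusted p 0.073 to 0.11). Over all lines its libraries lay at 4.18, 21.1 and 67.3 CPM with IFNg, at 6.65, 22.5 and 55.9 CPM with IFNb and at 5.00, 23.5 and 57.0 CPM in NS.

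Pmaip1, which antagonises Mcl1 above all, was present in only some of the lines. Unstimulated it averaged 49.4 ± 4.19 CPM in KPC.2, 21.7 ± 0.736 CPM in Renca (n = 2), 18.8 ± 0.726 CPM in YUMMER1.7 and 5.01 ± 0.762 CPM in LLC (SD, n = 3 for the others). In CT26.2 all 9 libraries were at 0 counts, which allows a level of up to 0.178 CPM for the NS group. B16.1, Panc02.3 and MC38.7 had no more than 0.166 CPM in any library. Where it was present it responded little to IFNg. KPC.2 had 60.2, 61.8 and 62.0 CPM with IFNg, against 52.98, 50.5 and 44.8 CPM in NS (0.30 ± 0.10, edgeR adjusted p = 0.021). Leaving out IFNg replicate 3 or NS replicate 3 ended the call for Pmaip1 in KPC.2 (log2 change 0.25 to 0.30, edgeR adjusted p 0.057 to 0.11), and it was also lost without the filter on low counts (adjusted p 0.051). LLC (0.09 ± 0.15), Renca (0.02 ± 0.12) and YUMMER1.7 (−0.04 ± 0.12) did not pass. MC38.7, though near 0, counted among the pairs above the floor with IFNg, and its log2 change of 0.69 did not pass.

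**Figure D3:**
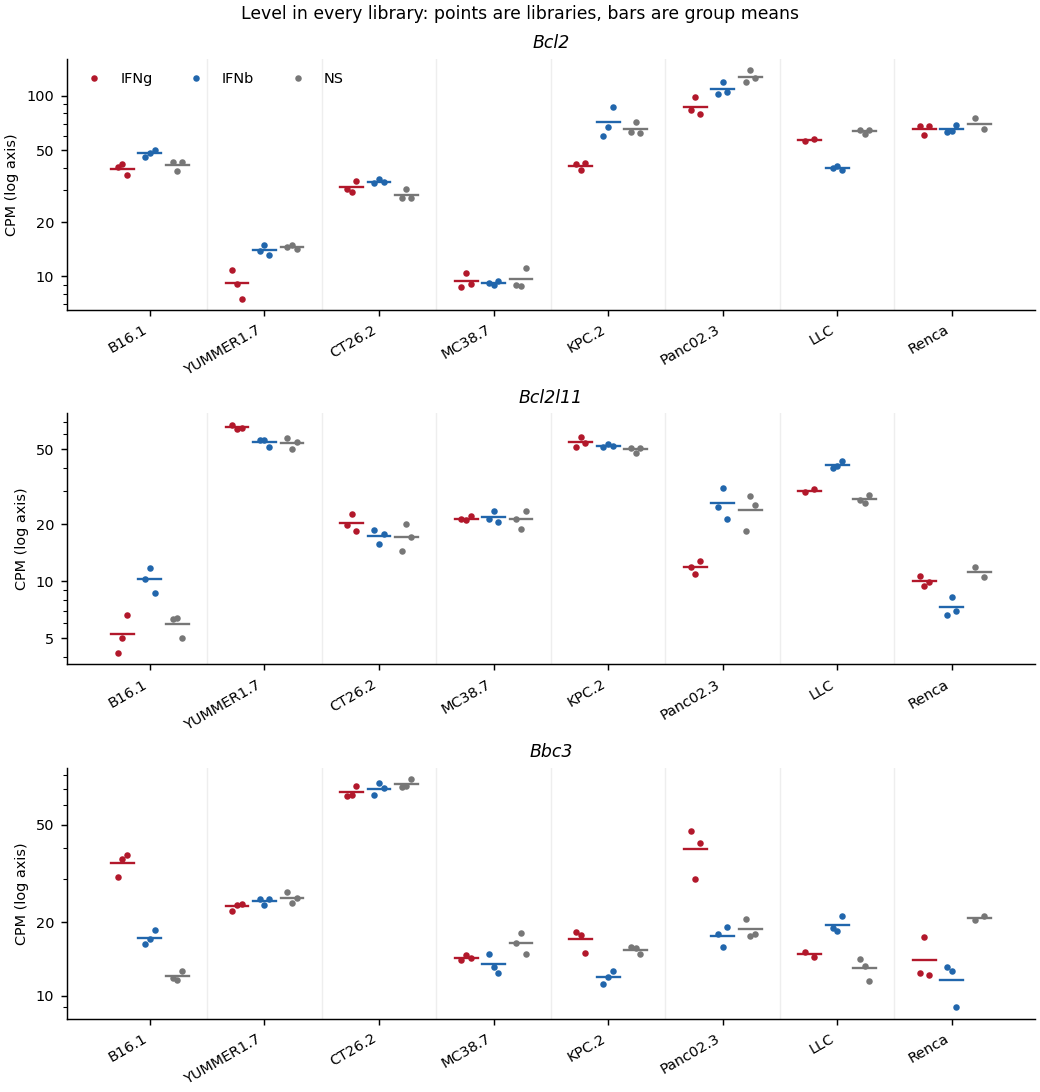
CPM (log axis) of Bcl2, Bcl2l11 and Bbc3 in every library of the 8 lines, with IFNg (red), IFNb (blue) and NS (grey) side by side; points are libraries and bars are group means. Within B16.1 and Panc02.3, Bbc3 is highest with IFNg; within LLC, Bcl2 is lowest with IFNb at 38.9 to 40.9 CPM; within Panc02.3, Bcl2l11 is lowest with IFNg at 10.9 to 12.9 CPM.

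With IFNb the mean changes of Bid and Bak1 were smaller than with IFNg, by the direct test given further on. On the mean of lines 4 members rose, Bid (0.35 ± 0.03), Bak1 (0.20 ± 0.02), Bcl2l1 (0.15 ± 0.03) and Bcl2l11 (0.14 ± 0.04), and Bax fell (−0.12 ± 0.03; SE, 24 IFNb and 23 NS libraries). Of all genes tested 13% rose and 17.3% fell. The edgeR adjusted p was 3.3e-14 for Bid, 1.6e-10 for Bak1, 5.7e-06 for Bcl2l1 and 0.010 for Bcl2l11. Bcl2 (−0.08 ± 0.03), Mcl1 (−0.01 ± 0.02), Bmf (−0.15 ± 0.08) and Bbc3 (−0.07 ± 0.04) did not pass. Leaving out 1 line changed several of these means. Bcl2l11 no longer passed without B16.1 (0.04 ± 0.04, edgeR adjusted p = 0.58) or without LLC (0.07 ± 0.05, edgeR adjusted p = 0.33) and stood at 0.25 ± 0.05 without Renca, and Bcl2l1 stood at 0.10 ± 0.03 without B16.1. A fall of Bcl2 passed without B16.1, YUMMER1.7, CT26.2 or KPC.2, at −0.13 at the most, one of Bbc3 without B16.1 (−0.16 ± 0.05) or LLC (−0.17 ± 0.05), and one of Bmf without CT26.2 (−0.19 ± 0.07). Within lines, 18 of 76 member-by-line pairs above the floor rose and 8 fell, where 7.66% and 8.21% of tests over all genes did. With replicate 1, 2 or 3 left out of every group, the count of falls dropped to 4, 4 or 5. The numbers of members up and down with IFNb, with the shares of all genes tested in brackets, were 5 up and 0 down in B16.1 (14.6% and 14.3%), 0 up and 0 down in YUMMER1.7 (0.384% and 0.972%), 1 up and 0 down in CT26.2 (1.97% and 0.929%) and 3 up and 0 down in MC38.7 (13.8% and 16.8%). They were 1 up and 1 down in KPC.2 (2.52% and 1.93%), 0 up and 1 down in Panc02.3 (3.33% and 2.82%), 5 up and 3 down in LLC (17.6% and 21%) and 3 up and 3 down in Renca (7.1% and 6.82%). A single rise and a single fall reached 2-fold, Bid in B16.1 and Bmf in LLC, where 1.85% of tests over all genes were rises and 0.693% falls of that size. The comparisons of IFNg and of IFNb share their NS libraries.

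Bid rose with IFNb in 4 lines. B16.1 had 51.6, 47.6 and 44.3 CPM with IFNb, against 21.7, 20.7 and 23.4 CPM in NS (1.13 ± 0.09, edgeR adjusted p = 1.1e-16). LLC had 40.6, 40.7 and 39.4 CPM with IFNb, against 23.0, 22.9 and 22.5 CPM in NS (0.82 ± 0.08, edgeR adjusted p = 1.1e-13). Both lines thus gained without overlap. CT26.2 (0.40 ± 0.09) and Renca (0.42 ± 0.09) rose by less, and Panc02.3 did not pass (0.24 ± 0.10), with 21.5, 21.4 and 23.8 CPM with IFNb. Bak1 rose in another set of 4 lines, most in MC38.7, which had 99.4, 97.9 and 90.0 CPM with IFNb, against 63.8, 61.7 and 57.0 CPM in NS (0.66 ± 0.06, edgeR adjusted p = 2.7e-13). Renca (0.39 ± 0.07), LLC (0.32 ± 0.06) and KPC.2 (0.29 ± 0.07) followed. The KPC.2 call for Bak1 did not hold without IFNb replicate 1 (log2 change 0.27, edgeR adjusted p 0.090). In B16.1, where Bid rose, Bak1 had 102, 101 and 85.8 CPM with IFNb, against 107, 101 and 106 CPM in NS, and did not pass (−0.12 ± 0.06).

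LLC had the most changes with IFNb, 5 members up and 3 down of 10. Bmf had 0.588, 0.566 and 0.642 CPM with IFNb, against 2.56, 1.90 and 1.86 CPM in NS (−1.75 ± 0.29, edgeR adjusted p = 1.1e-06), and the IFNb group summed to 23 counts. Bcl2 had 39.98, 40.9 and 38.9 CPM with IFNb, against 64.5, 61.8 and 64.3 CPM in NS (−0.67 ± 0.07, edgeR adjusted p = 3.0e-11), and Mcl1 fell by 0.22 ± 0.07. So Bcl2 and Mcl1, both antiapoptotic, fell in this line along with the proapoptotic Bmf. Bcl2l11 had 39.8, 41.0 and 43.3 CPM with IFNb, against 27.0, 26.0 and 28.5 CPM in NS (0.61 ± 0.09), Bbc3 rose by 0.60 ± 0.11 and Pmaip1 by 0.39 ± 0.14. Without IFNb replicate 1 or 2 or NS replicate 1 or 3 the call for Pmaip1 in LLC was lost (log2 change 0.28 to 0.39, edgeR adjusted p 0.054 to 0.18), and also without the filter on low counts (adjusted p 0.093). Among p53 targets that are not members, 8 of 14 rose and 3 fell in LLC with IFNb, beside 17.6% and 21% of all genes. Fibroblast markers summed to 764 to 818 CPM with IFNb (1 of 7 at 0 counts), against 1615 to 1725 CPM in NS (0 of 7). Epithelial markers summed to 127 to 129.9 CPM with IFNb (2 of 8 at 0 counts), against 292 to 316 CPM in NS (2 of 8). The part of any of these in the changes of the members was not tested.

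In B16.1 with IFNb, Bcl2l11 had 10.3, 11.8 and 8.63 CPM, against 6.36, 6.405 and 5.00 CPM in NS (0.82 ± 0.17, edgeR adjusted p = 8.0e-05), and Bcl2l1 (0.52 ± 0.08) and Bbc3 (0.52 ± 0.13) rose as well. Activators and a guardian were therefore higher together. Melanocyte markers summed to 13241 to 13381 CPM with IFNb (0 of 7 at 0 counts), against 19608 to 20038 CPM in NS (0 of 7), and their part was not tested. Bcl2 also passed in this line (0.21 ± 0.08). In B16.1 the call for Bcl2 was lost without IFNb replicate 2 or 3 or NS replicate 1, 2 or 3 (log2 change 0.16 to 0.24, edgeR adjusted p 0.053 to 0.22), and also with RLE scaling, without the filter on low counts or in DESeq2 (adjusted p 0.0504 to 0.15). In Renca 2 BH3-only members fell with IFNb, with Bbc3 at 13.2, 12.6 and 8.98 CPM with IFNb, against 20.4 and 21.2 CPM in NS (−0.82 ± 0.13, edgeR adjusted p = 1.6e-06), and Bcl2l11 at 6.65, 8.26 and 6.96 CPM, against 11.95 and 10.6 CPM in NS (−0.64 ± 0.15). Leaving out NS replicate 2 ended the call for Bcl2l11 in Renca (log2 change −0.54, edgeR adjusted p 0.098), and the 1 NS library then left was assumed to vary like the other groups. Kidney tubule markers summed to 584 to 600.3 CPM in Renca with IFNb (0 of 4 at 0 counts), against 691 to 733 CPM in NS (0 of 4), and their part was not tested. Bcl2l1 rose in Renca by 0.38 ± 0.08 and in MC38.7 by 0.22 ± 0.08, where Mcl1 rose by 0.24 ± 0.07. The Renca call for Bcl2l1 did not hold without NS replicate 2 (log2 change 0.31, edgeR adjusted p 0.058), again with 1 NS library. Without IFNb replicate 1 or 2 or NS replicate 2 the call for Bcl2l1 in MC38.7 was lost (log2 change 0.20 to 0.22, edgeR adjusted p 0.059 to 0.094). In MC38.7 the call for Mcl1 was lost without IFNb replicate 2 (log2 change 0.17, edgeR adjusted p 0.11).

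The other calls with IFNb were small. In KPC.2, Pmaip1 had 37.9, 37.9 and 29.5 CPM with IFNb, against 52.98, 50.5 and 44.8 CPM in NS (−0.43 ± 0.12), a fall in the line where it rose with IFNg. Replicate 3 of the IFNb group is the shallowest library of all. Leaving out IFNb replicate 1, 2 or 3 or NS replicate 1 or 2 ended the call for Pmaip1 in KPC.2 (log2 change −0.38 to −0.47, edgeR adjusted p 0.067 to 0.14), and it was also lost without the filter on low counts (adjusted p 0.068). In Panc02.3, Bcl2 fell by 0.22 ± 0.07, the only member to pass there. The Panc02.3 call for Bcl2 did not hold without IFNb replicate 1 or 3 or NS replicate 2 or 3 (log2 change −0.17 to −0.23, edgeR adjusted p 0.086 to 0.26), nor did it hold without the filter on low counts or with the line fitted alone (adjusted p 0.13 to 0.28). In YUMMER1.7, 0 members passed with IFNb by edgeR, DESeq2 or limma-voom, and 1, Mcl1, had an unadjusted p under 0.05. There 0.384% of all genes rose and 0.972% fell by edgeR, and log2 changes of the members lay between −0.18 and 0.21.

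Set directly against each other, the cytokines differed in Bid and Bak1 whichever line was left out of the mean, while the difference in Bmf rested on Panc02.3. On the mean of lines IFNg exceeded IFNb by 0.79 ± 0.03 for Bid, 0.53 ± 0.02 for Bak1, 0.32 ± 0.04 for Bbc3 and 0.17 ± 0.03 for Bcl2l1 (log2, SE, 23 IFNg and 24 IFNb libraries). Bmf (−0.93 ± 0.10), Bcl2l11 (−0.21 ± 0.05) and Bcl2 (−0.17 ± 0.03) were lower with IFNg. Without Panc02.3 the difference in Bmf was −0.20 ± 0.10 (edgeR adjusted p = 0.13), that in Bbc3 0.20 ± 0.05 and that in Bcl2l11 −0.07 ± 0.05 (edgeR adjusted p = 0.28). Without B16.1 it was 0.09 ± 0.03 for Bcl2l1 and −0.10 ± 0.05 for Bcl2l11 (edgeR adjusted p = 0.11). For Bcl2 it was −0.12 ± 0.03 without YUMMER1.7, −0.10 ± 0.04 without KPC.2 and −0.27 ± 0.04 without LLC, and Bax passed without LLC (0.09 ± 0.03). The edgeR adjusted p was 9.2e-32 for Bid, 1.9e-27 for Bak1, 9.6e-09 for Bbc3, 4.5e-11 for Bmf and 0.00020 for Bcl2l11. Of all genes tested, 18% were higher and 18.7% lower with IFNg. Within lines, 25 of 77 member-by-line pairs were higher with IFNg and 13 lower, where 13.9% and 12.6% of tests over all genes were. The numbers of members higher and lower with IFNg than with IFNb, with the shares of all genes tested in brackets, were 5 higher and 2 lower in B16.1 (26% and 24.5%), 4 higher and 1 lower in YUMMER1.7 (9.09% and 7.73%), 2 higher and 0 lower in CT26.2 (2.51% and 1.5%) and 1 higher and 1 lower in MC38.7 (17.8% and 10.5%). They were 4 higher and 2 lower in KPC.2 (10.9% and 9.18%), 3 higher and 4 lower in Panc02.3 (22.6% and 30.4%), 2 higher and 2 lower in LLC (16.8% and 12.5%) and 4 higher and 1 lower in Renca (5.25% and 4.19%). The doses were not matched, so this compares these 2 treatments and not the cytokines at equal strength. In YUMMER1.7 most of the interferon-induced check genes did not rise with IFNb, which limits how the differences in that line can be read.

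Bid was higher with IFNg than with IFNb in 7 lines, by 0.21 in Renca at the least and 2.24 in Panc02.3 at the most, where it had 121, 99.6 and 89.3 CPM with IFNg, against 21.5, 21.4 and 23.8 CPM with IFNb. Without IFNg replicate 1 or 2 or IFNb replicate 1, 2 or 3 the call for Bid in Renca was lost (log2 change 0.17 to 0.22, edgeR adjusted p 0.089 to 0.20), and also without the filter on low counts or with the line fitted alone (adjusted p 0.14 to 0.18). In LLC the difference did not pass (0.15 ± 0.08, 95% interval −0.01 to 0.30). Bak1 was higher with IFNg in 6 lines, up to 1.23 ± 0.06 in B16.1, and lower in Panc02.3 (−0.35 ± 0.08, edgeR adjusted p = 0.00012), where it had 44.7, 52.8 and 42.6 CPM with IFNg, against 59.6, 55.9 and 63.9 CPM with IFNb. In MC38.7 the difference was 0.01 ± 0.06 (95% interval −0.11 to 0.13).

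Bcl2l11 differed between the cytokines in 5 lines, in both directions. It was lower with IFNg than with IFNb in Panc02.3 (−1.15 ± 0.15), B16.1 (−0.96 ± 0.17) and LLC (−0.46 ± 0.10), and higher in Renca (0.45 ± 0.13) and YUMMER1.7 (0.27 ± 0.09). In Renca the call for Bcl2l11 was lost without IFNg replicate 1 or IFNb replicate 1 or 3 (log2 change 0.37 to 0.42, edgeR adjusted p 0.055 to 0.18), and also with the line fitted alone (adjusted p 0.060). Leaving out IFNg replicate 1, 2 or 3 or IFNb replicate 3 ended the call for Bcl2l11 in YUMMER1.7 (log2 change 0.23 to 0.29, edgeR adjusted p 0.054 to 0.15), and it was also lost without the filter on low counts (adjusted p 0.075). Bcl2 was lower with IFNg in KPC.2 (−0.69 ± 0.10), YUMMER1.7 (−0.59 ± 0.13), Panc02.3 (−0.33 ± 0.08) and B16.1 (−0.28 ± 0.08), and higher in LLC (0.51 ± 0.08), with 56.1 and 57.4 CPM with IFNg, against 39.98, 40.9 and 38.9 CPM with IFNb.

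Bmf was lower with IFNg than with IFNb in Panc02.3 (−6.02 ± 0.22), MC38.7 (−1.06 ± 0.20), Renca (−0.63 ± 0.18) and KPC.2 (−0.60 ± 0.09), and higher in B16.1 (0.60 ± 0.20). The Renca call for Bmf did not hold without IFNg replicate 2 or IFNb replicate 1 (log2 change −0.47 to −0.57, edgeR adjusted p 0.11 to 0.22), nor did it hold with the line fitted alone (adjusted p 0.13). Without IFNg replicate 1 the call for Bmf in B16.1 was lost (log2 change 0.50, edgeR adjusted p 0.0503). Bbc3 was higher with IFNg in Panc02.3 (1.21 ± 0.12), B16.1 (1.02 ± 0.11) and KPC.2 (0.53 ± 0.17) and lower in LLC (−0.41 ± 0.11). In KPC.2 the call for Bbc3 was lost without IFNg replicate 1 or 2 or IFNb replicate 1 or 2 (log2 change 0.46 to 0.56, edgeR adjusted p 0.051 to 0.12), and also in limma-voom (adjusted p 0.084). Leaving out IFNg replicate 3 ended the call for Bbc3 in LLC (log2 change −0.38, edgeR adjusted p 0.056). Bcl2l1 was higher with IFNg in B16.1 (0.73 ± 0.08), YUMMER1.7 (0.33 ± 0.07) and Panc02.3 (0.23 ± 0.08). The Panc02.3 call for Bcl2l1 did not hold without IFNg replicate 1 (log2 change 0.18, edgeR adjusted p 0.092). Pmaip1 was higher with IFNg in KPC.2 (0.74 ± 0.12, edgeR adjusted p = 5.0e-06), and Bax in Renca (0.25 ± 0.08). Without IFNg replicate 2 or IFNb replicate 1 or 3 the call for Bax in Renca was lost (log2 change 0.11 to 0.24, edgeR adjusted p 0.14 to 0.61), and also with the line fitted alone (adjusted p 0.18). Mcl1 passed in 0 lines by edgeR and in 1 by each of DESeq2 and limma-voom, and 2 lines had an unadjusted p under 0.05 in edgeR.

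**Figure D4:**
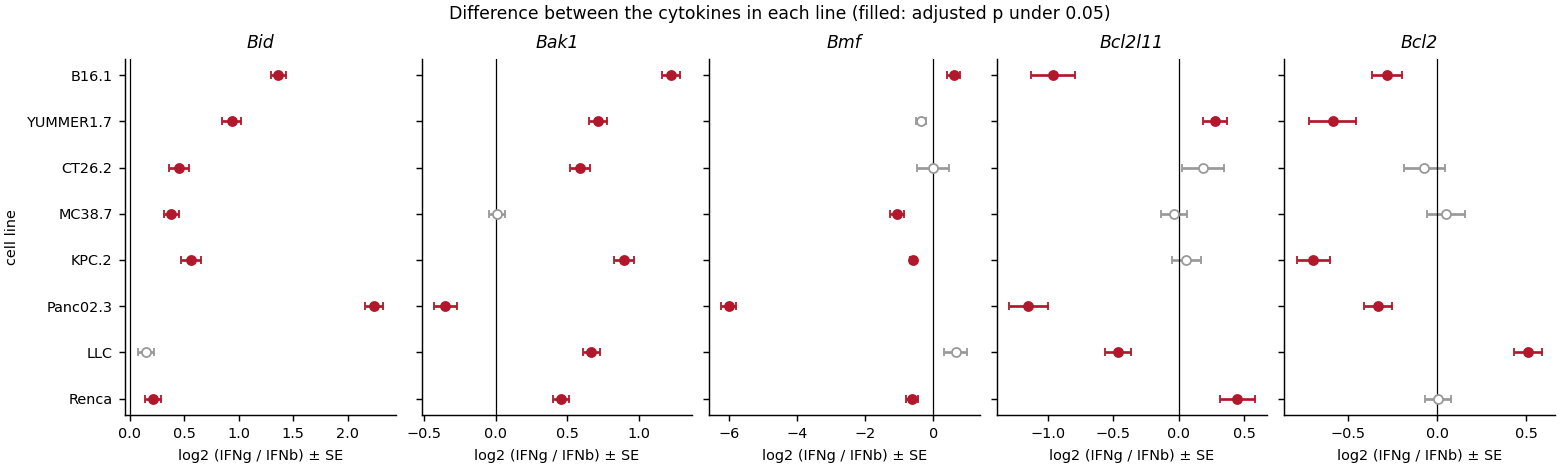
Log2 difference between IFNg and IFNb (positive: higher with IFNg) with its SE for Bid, Bak1, Bmf, Bcl2l11 and Bcl2 in each of the 8 lines; filled points have an edgeR adjusted p under 0.05 and each panel has its own axis. Bid lies right of 0 in all 8 lines, filled in 7, Bak1 lies left of 0 only in Panc02.3, and Bmf in Panc02.3 stands at −6.02.

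The responses differed between lines for most members. An F test that the 8 within-line changes are equal passed with IFNg in 8 of the 9 members other than Pmaip1 and with IFNb in the same number, with Bax failing in both (edgeR adjusted p = 0.94 with IFNg and 0.21 with IFNb). Of all genes tested, 69.2% passed that test with IFNg and 48.2% with IFNb. For IFNg against IFNb it passed in 8 of the 9, against 70.1% of all genes. For Bax the spread of responses between lines did not exceed that between libraries, which does not show that the lines responded alike.

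Departures from the other lines with IFNg were large in B16.1 and in Panc02.3. Against the mean of the other 7 lines, the log2 change in B16.1 was larger by 1.80 ± 0.22 for Bmf, 1.55 ± 0.08 for Bid, 1.46 ± 0.13 for Bbc3 and 1.06 ± 0.08 for Bcl2l1. The mean of the other 7 for Bmf holds Panc02.3, and without that line B16.1 departed by 1.06 ± 0.22 (edgeR adjusted p = 3.5e-05). The edgeR adjusted p of the 4 departures from the other 7 lines was 2.3e-23 for Bid, 2.4e-16 for Bcl2l1, 2.9e-15 for Bbc3 and 1.9e-10 for Bmf, and 44.6% of all genes departed in this line. In the IFNg libraries of this line all 10 proliferation genes of a fixed list fell, with a median log2 change of −2.18 against 0.00 over all genes. Melanocyte markers summed to 9001 to 9463 CPM with IFNg (0 of 7 at 0 counts), against 19608 to 20038 CPM in NS (0 of 7). Fibroblast markers summed to 20.7 to 22.9 CPM with IFNg (1 of 7 at 0 counts), against 38.4 to 43.3 CPM in NS (2 of 7). Leukocyte markers summed to 13.7 to 16.11 CPM with IFNg (7 of 14 at 0 counts), against 2.69 to 3.26 CPM in NS (9 of 14). The part of any of these in the changes of the members was not tested.

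In Panc02.3 the departures ran in both directions, 1.54 ± 0.09 for Bid and 0.98 ± 0.13 for Bbc3 upward and −5.37 ± 0.27 for Bmf, −1.07 ± 0.16 for Bcl2l11 and −1.05 ± 0.08 for Bak1 downward. All 5 passed (highest edgeR adjusted p = 4.4e-08), as did 46.4% of all genes. So with IFNg this line gained the BH3-only members Bid and Bbc3 and lost the BH3-only members Bmf and Bcl2l11. Of 14 p53 targets that are not members, 10 rose and 1 fell here with IFNg (median 0.67 against −0.07 over all genes), and 5 of 10 proliferation genes fell, where 23.2% of all genes rose and 31.6% fell. Fibroblast markers summed to 79.5 to 89.5 CPM with IFNg (1 of 7 at 0 counts), against 683 to 914 CPM in NS (0 of 7). None of these was tested for a part in the changes of Bbc3 or the other members.

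In KPC.2, Bak1 was higher with IFNg, and the antiapoptotic members went both ways: Bcl2 (−0.68 ± 0.08) and Mcl1 (−0.26 ± 0.07) fell with IFNg while Bcl2l1 (0.23 ± 0.07) rose. Epithelial markers summed to 9209 to 9669 CPM with IFNg (0 of 8 at 0 counts), against 6869 to 7209.5 CPM in NS (0 of 8) in this line. Pancreas duct markers moved the other way, with 1317 to 1422 CPM with IFNg (0 of 4 at 0 counts), against 1829 to 2023 CPM in NS (0 of 4). Fibroblast markers summed to 3.89 to 6.21 CPM with IFNg (2 of 7 at 0 counts), against 9.26 to 10.5 CPM in NS (2 of 7). The part of these markers in the changes of the members was not tested. CT26.2 had 2 members called with IFNg. They were Bid (0.85 ± 0.09) and Bak1 (0.55 ± 0.07).

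In Renca with IFNg, Bid, Bak1, Bcl2l1 and Mcl1 rose and Bbc3 fell. Replicate 2 of that group stands apart, with a chi-square per gene of 23.5 and 33.0 against replicates 1 and 3, which gave 2.26 against each other. Without it the log2 changes were 0.61 for Bid, 0.78 for Bak1, 0.30 for Bcl2l1, 0.28 for Mcl1 and −0.76 for Bbc3, and all 5 still passed (highest edgeR adjusted p = 0.016). Epithelial markers summed to 1379 to 1614 CPM with IFNg (0 of 8 at 0 counts), against 815 to 848 CPM in NS (1 of 8). Kidney tubule markers summed to 511 to 567 CPM with IFNg (0 of 4 at 0 counts), against 691 to 733 CPM in NS (0 of 4). In the other lines fibroblast markers were lower with IFNg in YUMMER1.7, at 4781 to 4940 CPM with IFNg, against 6093 to 6411 CPM in NS (0 of 7 at 0 counts in both). They were lower in MC38.7 too, at 2306 to 2316 CPM with IFNg, against 2869 to 2993 CPM in NS (0 of 7 in both), and in LLC, at 1071 to 1114 CPM with IFNg (1 of 7), against 1615 to 1725 CPM in NS (0 of 7). The part of any of these in the changes of the members was not tested.

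Without cytokine the members themselves varied widely between lines. The F test across the 8 NS groups passed in all 10 members, as in 96.5% of all genes, and the order of the lines was different for each. Levels are mean CPM ± SD over 3 libraries, or 2 for Renca, given in order with the highest first, and each line was tested by edgeR against the next, a test in which 63.3 to 72.3% of all genes passed over the pairs of lines. Bcl2 stood in the order Panc02.3 (128 ± 9.32), Renca (70.2 ± 6.76), KPC.2 (65.6 ± 5.34), LLC (63.5 ± 1.54), B16.1 (41.4 ± 2.68), CT26.2 (28.3 ± 1.81), YUMMER1.7 (14.5 ± 0.366) and MC38.7 (9.62 ± 1.28). The step to the next line did not pass from Renca through KPC.2 to LLC. Bcl2l1 stood in the order CT26.2 (274 ± 24.2), KPC.2 (147 ± 7.37), YUMMER1.7 (132 ± 6.00), LLC (119.6 ± 4.36), Panc02.3 (109 ± 9.82), Renca (82.0 ± 5.97), MC38.7 (61.3 ± 1.57) and B16.1 (41.1 ± 1.46). The steps that did not pass were those from YUMMER1.7 through LLC to Panc02.3. Mcl1 stood in the order KPC.2 (358 ± 28.7), CT26.2 (277 ± 6.72), Renca (171 ± 6.79), B16.1 (165 ± 6.51), YUMMER1.7 (153 ± 6.402), LLC (153 ± 5.29), Panc02.3 (119 ± 3.22) and MC38.7 (100.5 ± 3.73), with steps that did not pass from Renca through B16.1 and YUMMER1.7 to LLC. CT26.2 was thus above the mean of the other 7 lines in Bcl2l1 and Mcl1 and below it in Bcl2, and MC38.7 was below it in all 3 antiapoptotic members.

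Among BH3-only members, Bmf stood in the order KPC.2 (132 ± 11.1), Panc02.3 (54.7 ± 5.41), YUMMER1.7 (10.4 ± 2.14), B16.1 (4.03 ± 0.541), Renca (3.78 ± 0.256), MC38.7 (2.69 ± 0.531), LLC (2.11 ± 0.395) and CT26.2 (1.18 ± 0.356). KPC.2 and Panc02.3 were apart from the rest, and the step to the next line did not pass between B16.1 and Renca, and between MC38.7 and LLC. Bbc3 stood in the order CT26.2 (73.0 ± 3.0004), YUMMER1.7 (25.1 ± 1.33), Renca (20.8 ± 0.625), Panc02.3 (18.7 ± 1.73), MC38.7 (16.4 ± 1.67), KPC.2 (15.5 ± 0.589), LLC (13.0 ± 1.32) and B16.1 (12.005 ± 0.530). CT26.2 had most, and no step passed from Renca through Panc02.3, MC38.7, KPC.2 and LLC to B16.1. Bcl2l11 stood in the order YUMMER1.7 (53.9 ± 3.69), KPC.2 (49.9 ± 1.84), LLC (27.1 ± 1.28), Panc02.3 (23.97 ± 5.05), MC38.7 (21.2 ± 2.31), CT26.2 (17.2 ± 2.77), Renca (11.3 ± 0.979) and B16.1 (5.92 ± 0.799), with steps that did not pass between YUMMER1.7 and KPC.2, and from LLC through Panc02.3 to MC38.7. B16.1, lowest in Bbc3 and Bcl2l11, was also among the lines near 0 for Pmaip1. For Pmaip1 the steps between Renca and YUMMER1.7 and among the 4 lines near 0 did not pass. Bid stood in the order MC38.7 (62.3 ± 3.46), KPC.2 (48.5 ± 4.18), CT26.2 (40.7 ± 1.52), Renca (31.3 ± 0.234), YUMMER1.7 (23.6 ± 2.67), LLC (22.8 ± 0.246), B16.1 (21.9 ± 1.38) and Panc02.3 (18.6 ± 1.99), with steps that did not pass from YUMMER1.7 through LLC to B16.1. Panc02.3 and B16.1, which had the 2 lowest Bid means unstimulated, had the 2 highest with IFNg, at 103 ± 16.3 CPM in Panc02.3 and 124 ± 3.23 CPM in B16.1.

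The pore-forming members followed different orders. Bax stood in the order CT26.2 (232 ± 8.38), Panc02.3 (196 ± 11.1), B16.1 (177 ± 14.4), LLC (166 ± 4.80), YUMMER1.7 (142 ± 6.32), KPC.2 (70.2 ± 5.01), MC38.7 (66.9 ± 2.83) and Renca (59.2 ± 5.73), and steps that did not pass lay from Panc02.3 through B16.1 to LLC, and from KPC.2 through MC38.7 to Renca. Bak1 stood in the order Renca (109.9 ± 4.48), B16.1 (105 ± 3.12), CT26.2 (103 ± 2.88), KPC.2 (85.4 ± 3.72), LLC (84.2 ± 1.90), YUMMER1.7 (73.6 ± 5.39), MC38.7 (60.8 ± 3.46) and Panc02.3 (53.4 ± 2.57), and steps that did not pass lay from Renca through B16.1 to CT26.2, and between KPC.2 and LLC. Renca had the least Bax and the most Bak1 by mean, and Panc02.3, above the mean of the other 7 lines in Bax, was lowest in Bak1.

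**Figure D5:**
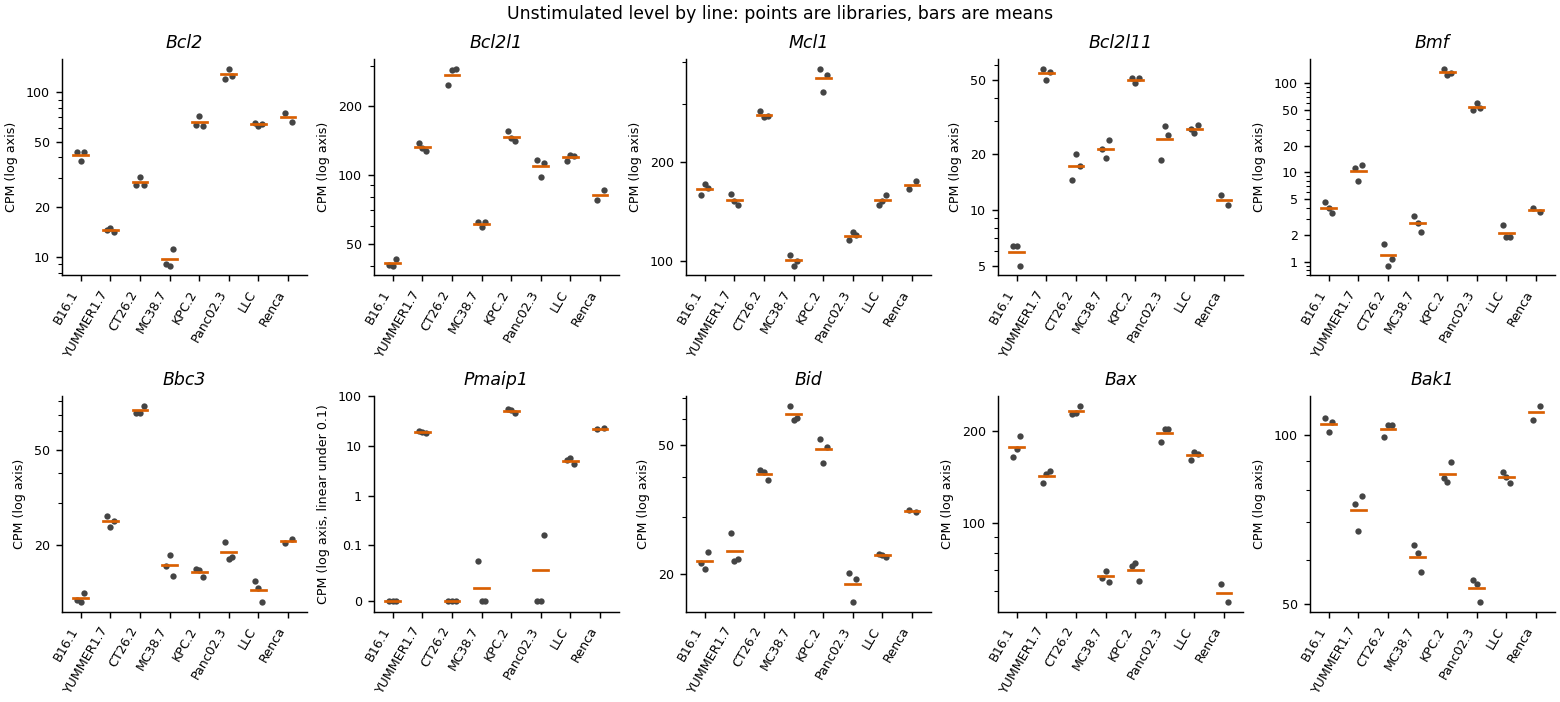
CPM (log axis, linear under 0.1 for Pmaip1) of each of the 10 members in the NS libraries of the 8 lines; points are libraries and bars are means. Bmf stands far above the rest in KPC.2 and Panc02.3, Bbc3 in CT26.2, and Pmaip1 is at or near 0 in B16.1, CT26.2, MC38.7 and Panc02.3.

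Other genes of the pathway were taken from fixed lists and averaged over the 8 lines. Their counts are read beside all genes tested, of which 18.3% rose and 23.7% fell with IFNg and 13% and 17.3% with IFNb. The other BCL2 family genes gave 10 of 16 that could be tested, and all that passed fell: 4 with IFNg (median of the list −0.08) and 2 with IFNb (median −0.03), beside medians over all genes of −0.04 with IFNg and −0.02 with IFNb. Bnip3, a mitochondrial protein known for roles in mitophagy and hypoxia, changed by −0.47 ± 0.09 with IFNg and −0.85 ± 0.10 with IFNb, and its relative Bnip3l by −0.39 ± 0.04 with IFNg and −0.42 ± 0.04 with IFNb, all falls. Bnip3 nonetheless rose with IFNg in KPC.2 (1.22 ± 0.26), and its mean was −0.71 ± 0.10 without KPC.2 and −0.27 ± 0.10 without B16.1. That of Bnip3l was −0.23 ± 0.04 without Panc02.3. Bok, a further pore-forming relative, had a mean change with IFNg of −0.21 ± 0.08 (edgeR adjusted p = 0.024) that did not hold without B16.1 (0.02 ± 0.04, edgeR adjusted p = 0.91) or without KPC.2 (−0.15 ± 0.09, edgeR adjusted p = 0.21). Within lines Bok fell in B16.1 (−1.80 ± 0.56, with 6 counts in the IFNg group) and KPC.2 (−0.63 ± 0.08) and rose in Panc02.3 (0.52 ± 0.13) and MC38.7 (0.24 ± 0.08). The Bcl2a1 genes, near-identical copies that encode an antiapoptotic protein of immune cells, were listed at 0 in all 70 libraries.

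Downstream, of 17 genes of the apoptosome and of mitochondrial release, with IFNg 7 rose and 6 fell (median −0.02) and with IFNb 4 rose and 4 fell (median −0.02). Birc3, an inhibitor of apoptosis protein, rose by 0.71 ± 0.23 with IFNg, and Cycs, which encodes the cytochrome c that the pores release, by 0.38 ± 0.03. Birc3 did not pass without B16.1 (0.45 ± 0.23, edgeR adjusted p = 0.12). Of 16 regulators of the members, with IFNg 6 rose and 4 fell (median 0.04) and with IFNb 5 rose and 3 fell (median 0.00). The stress factor Ddit3 (CHOP) rose by 1.17 ± 0.06 with IFNg and 0.49 ± 0.07 with IFNb, Trib3, a target of it, by 0.84 ± 0.07 with IFNg, and March5, a mitochondrial ubiquitin ligase, by 0.39 ± 0.02 with IFNg and 0.36 ± 0.02 with IFNb. Without LLC the means with IFNb were 0.19 ± 0.07 for Ddit3 and 0.21 ± 0.02 for March5. Of 14 p53 targets that are not members, with IFNg 6 rose and 3 fell (median 0.06) and with IFNb 4 rose and 3 fell (median 0.10). The death receptor gene Fas rose by 1.94 ± 0.18 with IFNg (edgeR adjusted p = 9.9e-14), Sesn2 rose by 0.46 ± 0.04, or 0.27 ± 0.04 without Panc02.3, and Sesn1 fell by 0.58 ± 0.06.

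The genes whose pattern over the 24 group means was most like each member, after the mean of each line was taken out (16 free values), are given with Pearson's r as a description. For Bid they were Steap1 (0.95), Lmo4 (0.93) and Mrps18b (0.93), for Bak1 Vwa5a (0.93), Psma5 (0.93) and Rnf19b (0.93), and for Bcl2l1 Dlgap4 (0.97), Mvp (0.93) and Anxa7 (0.92). For Bbc3 they were Btbd19 (0.93), Zfp874b (0.93) and Htra1 (0.91), and for Bmf Dynlt1b (0.96), Ube4a (0.96) and Abcc3 (0.96). The pattern of Bmf, and so its likeness, turns on Panc02.3. The closest matches were looser for Bcl2, Dipk2a (0.89), Ermp1 (0.86) and Gusb (0.83), for Bcl2l11, St3gal1 (0.85), Tram2 (0.82) and Sik1 (0.81), for Mcl1, Jpt1 (0.76), Agmo (0.74) and Sfpq (0.70), for Bax, led by Mettl23 (0.80), and for Pmaip1, Tmc5 (0.84), Cbwd1 (0.79) and Hcrtr1 (0.79).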

How the data were processed

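RNA sequencing libraries of 8 mouse cancer cell lines were used, 70 in all. The deposited table holds estimated counts per gene; per the submitters' processing notes, Trimmomatic 0.36 and kallisto were among the authors' tools and mm10 (GRCm38) was named as the build. How transcripts were summed to genes, and any strand setting, could not be read from these sources. Estimated counts were rounded to whole numbers. Library totals of 668355 to 28550816 set the precision, and every column of the table was mapped to a sample by its title.

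A single edgeR 4.0.16 quasi-likelihood fit (R 4.3.3) held all 24 groups with TMM scaling and edgeR's own filter on low counts, which left 16147 of 35197 genes. Contrasts were IFNg against NS, IFNb against NS and IFNg against IFNb within each line and on the mean of 8 lines, F tests for a difference between lines, and unstimulated levels. P-values were adjusted by Benjamini and Hochberg over all genes tested, and a change was called at an adjusted p under 0.05. The SE of a log2 change was taken from the F statistic. All 10 members were named, and of each other list up to 3 genes were named, by size of mean change among those called; 1 gene that met this rule and 1 motif are not reported here. The members and lists were chosen with earlier results of these data known. The procedure was tested on simulated data.

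Alternatives were RLE scaling, no filter on low counts, DESeq2 1.42.0, limma-voom (limma 3.58.1), each line fitted alone, replicate number as a block, leaving out each replicate number or each single library (70 fits), a threshold of at least 2-fold and, chosen after the data were seen, leaving a line out of the mean over lines. The fits without a single library kept the scaling and the count dispersions estimated from all 70 libraries, so the library left out still shaped those. Motifs were searched in RefSeq promoter windows of GRCm38.p6, and gene positions and overlaps were read from a GRCm38 annotation.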

Additional observations from a re-analysis of the deposited data

Results flagged for a closer look

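In each case below the effect of one cytokine differed between the 8 lines, by edgeR's F test adjusted over all genes. Pmaip1 was left out because it stood at or near 0 counts in 4 lines. As background, 69.2% of all genes passed with IFNg and 48.2% with IFNb.

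With IFNg the adjusted p was 4.3e-29 for Bid, whose log2 change was 2.49 in B16.1 and 0.23 in MC38.7. It was 8.5e-24 for Bmf, which stood at −5.77 in Panc02.3 and 0.50 in B16.1. It was 2.1e-17 for Bak1, with −0.19 in Panc02.3 and 1.19 in KPC.2, and 2.4e-17 for Bbc3, with 1.53 in B16.1 and −0.53 in Renca. It was 9.2e-15 for Bcl2l1, with 1.25 in B16.1 and −0.11 in CT26.2. For Bcl2 (2.7e-08), Bcl2l11 (6.3e-07) and Mcl1 (7.0e-05) the edgeR test passed with smaller ranges of change.

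With IFNb the adjusted p was 7.1e-15 for Bid, whose log2 change was highest in B16.1 (1.13) and lowest in MC38.7 (−0.15), and 1.4e-10 for Bak1, with 0.66 in MC38.7 and −0.12 in B16.1. It was 4.1e-09 for Bbc3, with 0.60 in LLC and −0.82 in Renca, and 2.4e-08 for Bcl2, with −0.67 in LLC and 0.25 in CT26.2. It was 2.6e-07 for Bcl2l11, with 0.82 in B16.1 and −0.64 in Renca. The edgeR test also passed for Bcl2l1 (5.1e-05), Mcl1 (6.6e-05) and Bmf (6.6e-05).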

How the results depend on the processing

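No called change of a member reversed its sign under any alternative run. Of the 284 values with a test, 278 kept their side of the threshold with RLE scaling, 277 in DESeq2, 276 in limma-voom and 270 without the filter on low counts. In separate fits of each line, 200 of 225 did. RLE scaling moved the median of all genes by −0.03 to 0.05 on the log2 scale. Without the filter, 5 member-by-line falls with IFNb were called in place of 8. At a threshold of 2-fold the counts shrank most. On the mean of 8 lines, 1 member then rose and 1 fell with IFNg, 0 rose and 0 fell with IFNb, and 0 were higher and 0 lower for IFNg against IFNb. Within lines there were 7 rises and 3 falls with IFNg, 1 rise and 1 fall with IFNb, and 5 higher and 3 lower for IFNg against IFNb. Over all genes the shares past 2-fold were 2.47% up and 0.78% down with IFNg, 1.44% and 0.248% with IFNb and 1.41% and 0.613% for IFNg against IFNb on the mean of lines, and 3.28% and 3.38% for IFNg against IFNb within lines.

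Leaving out replicate 1, 2 or 3 of every group gave 8 to 12 falls within lines with IFNg, against 13, and 4 to 5 with IFNb, against 8, with fewer samples in each fit. Leaving out 1 library at a time ended 31 of the 103 calls within lines and gave a call to 8 others; in LLC with IFNg and unstimulated Renca, which hold 2 libraries each, the lone library left is assumed to vary like the other groups. Of 68 pairs of libraries with the same replicate number, 1 had deviations correlated over 0.1 (median −0.01). These correlations weigh all genes tested alike, those with low counts too, so they cannot settle whether the numbers pair the samples. With replicate number as a block, 26 rises and 11 falls with IFNg and 17 rises and 8 falls with IFNb were called within lines. With each line left out of the mean in turn, which was chosen after the data were seen, 201 of 216 means of members kept their side of the threshold, 6 lost a call and 9 gained one. Low counts of the gene limit what can be read for Pmaip1 in 4 lines and for Bmf in LLC and CT26.2.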
